A study of Mus musculus with 3 samples.

Results

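ETS transcription factors other than Spi1 were described in the RNA bound to chromatin of mouse macrophages. The 10 genes were chosen by symbol, namely Ets1, Ets2, Elf1, Elf2, Elf4, Elk3, Elk4, Etv3, Etv6 and Fli1, out of 55536 annotated genes, and each had a row in every table. The choice was made with earlier results of these data known. The cells were bone-marrow-derived macrophages of the C57BL/6J strain, primary cells grown from bone marrow. They had received Lipid A, the part of lipopolysaccharide that TLR4 senses, for 12 h at 100 ng/ml, were kept without it for 12 h, and were then given 100 ng/ml again for 15 min. Total RNA of the chromatin fraction was sequenced after depletion of ribosomal RNA, in 1 group of 3 libraries labelled as biological replicates 1, 2 and 3. Every library thus carries both Lipid A treatments, no untreated sample is among the samples analysed, and no difference below is an effect of Lipid A. The labels give neither the age nor the sex of the animals, and they give 1 donor identifier for the 3 libraries, so the spread between libraries may be partly technical.

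ETS proteins share a winged helix-turn-helix domain that binds DNA around the core GGAA, and members differ in the partner proteins and signals that act on them. Spi1 (PU.1) is the ETS factor best known for macrophage identity, while the genes described here include activators, repressors and factors that respond to the kinase ERK. RNA in the chromatin fraction is rich in nascent and partly spliced transcripts, so it shows transcription and processing more than the mature mRNA pool does.

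Levels are given as TPM, counts corrected for effective transcript length and scaled to the same total in each library. They come from the gene table made from alignments, and values from the read-based table, a second estimate from the same reads, are named as such. The tables summed to 14609979, 17423948 and 24162551 expected counts in replicates 1, 2 and 3. The labels give starting RNA of 1000, 250 and 500 ng in the same order, so the library with the most RNA was the least deeply sequenced. All 6 macrophage markers (Adgre1, Csf1r, Cd68, Mertk, Fcgr1 and Spi1) had a mean of at least 10 TPM. NK cell markers (Ncr1, Klrb1c, Eomes) were at 0 counts, and the summed level of 5 B cell markers was between 0.37 and 0.46 TPM. Of the 6 T cell markers, Cd3e had 0 counts and Cd3d, Cd3g and Lck had at most 1 count in any library, while Il7r and Cd247 made up nearly all of a summed level of 5.34 to 9.98 TPM. Summed levels were 0.03 to 0.61 TPM for 5 neutrophil markers, 0.01 to 1.58 TPM for 4 stromal markers and 4.09 to 7.70 TPM for 4 megakaryocyte markers. Some of these lists were higher in the read-based table. There the T cell markers summed to 24.6 to 28.5 TPM, of which Cd3d had 12.4 to 16.9. The neutrophil markers summed to 6.33 to 7.34 TPM, of which Cxcr2 had 4.11 to 5.32, and the NK cell marker Eomes had 0.72 to 1.42 TPM.

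Most of the genes stood at clear levels and 1 was close to absent. A mean of at least 10 TPM was reached by 7 of 10 genes, beside 26.4% of all 22028 protein-coding genes, and by 8 of 10 in the read-based table, beside 32.6%. All 10 genes had a mean count of at least 10, which the 22028 were not required to have. Because the 10 were chosen with earlier results of these data known, their higher levels may in part reflect that choice. Of the 16 other ETS genes, 3 reached 10 TPM in the gene table and 3 in the read-based table. The median over the 10 genes of log2(TPM + 1) was 4.71 ± 0.11 (SD, n = 3 libraries), against 3.43 ± 0.03 for the 11755 protein-coding genes detected at a mean count of at least 10. The order by mean TPM was Etv3, Elf2, Elk4, Elf1, Fli1, Elf4, Etv6, Ets2, Elk3 and Ets1. The higher gene of a neighbouring pair was higher in all 3 libraries for 8 of 9 pairs, the exception being Ets2 and Elk3, which differed by 0.02 ± 0.41 on the log2 scale. With 3 libraries the smallest p of an exact sign test is 0.25, so no difference in this order was tested. In the read-based table the same direction held in all libraries for 6 of the 9 pairs. There Etv3 did not lie above Elf2 in every library (0.19 ± 0.25), Elf1 lay below Fli1 on average (-0.11 ± 0.06), and Elf4 lay below Etv6 (-0.61 ± 0.12).

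**Figure D1:**
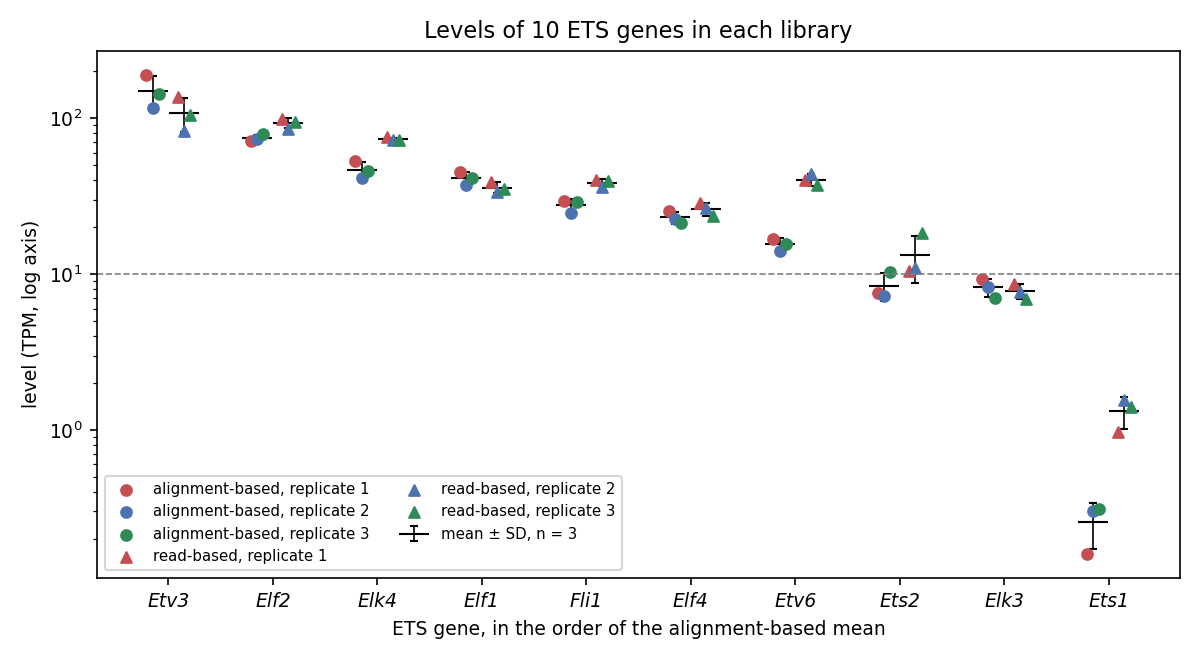
Level in TPM on a log axis of each of the 10 ETS genes in each library, circles for the alignment-based and triangles for the read-based table, with the mean and SD of 3 libraries as black lines and 10 TPM as a dashed line. Etv3 is highest in the alignment-based table, Etv6 moves furthest up among the genes above 10 TPM in the read-based table, and Ets1 lies far below the other 9.

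The set holds the repressors Etv3 and Etv6, the highest and the seventh gene of the order. Etv3, a transcriptional repressor also called METS that is linked to the arrest of proliferation as macrophages differentiate, lies at chr3:87525407-87540156 on the plus strand (mm10, GENCODE M21). Its level was 190.3 TPM in replicate 1, 117 TPM in replicate 2 and 144 TPM in replicate 3, from 11694, 8843 and 14368 counts. Replicate 1 was thus the highest library and replicate 2 the lowest, 1.63-fold apart, and even the lowest value exceeded every value of the other 9 genes. Etv3 alone made up 30.1 ± 3.72% (SD, n = 3) of the TPM of all 26 ETS genes, whose sum was 494 ± 61.4 TPM, and the 10 genes together made up 80.1 ± 1.53%. The read-based table gave 137, 83.3 and 104 TPM for Etv3, with the libraries in the same order. There Etv3 made up 16.9 ± 2.82% and the 10 genes 69.1 ± 2.06% of a sum of 634 ± 57.0 TPM. In both tables the share of the 10 genes depends on which genes were chosen.

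Most of the Etv3 level was assigned to transcripts annotated as keeping an intron. Etv3-203 and Etv3-204, both of the retained intron type, held 61.0 ± 5.06% of the gene's TPM in the alignment-based and 70.5 ± 4.73% in the read-based table. Only 29.6% of the bases of Etv3-203 and 43.8% of those of Etv3-204 lie outside the exons of the coding transcripts. The shares are thus not a measure of RNA that keeps an intron. Etv3-203, a transcript of 7263 nt with 3 exons, was at 83.9, 44.6 and 57.8 TPM in replicates 1, 2 and 3. Etv3-204, of 3819 nt, was at 43.2, 22.4 and 26.8 TPM. In both transcripts replicate 1 was highest and replicate 2 lowest, as for the gene. The coding transcript Etv3-205 had the reverse order of replicates 1 and 2, at 18.2, 22.5 and 31.3 TPM. The 3 coding transcripts together gave 63.2, 49.7 and 59.2 TPM, a 1.27-fold range where the whole gene had 1.63, so the libraries differed less in the coding part than in the sum.

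**Figure D2:**
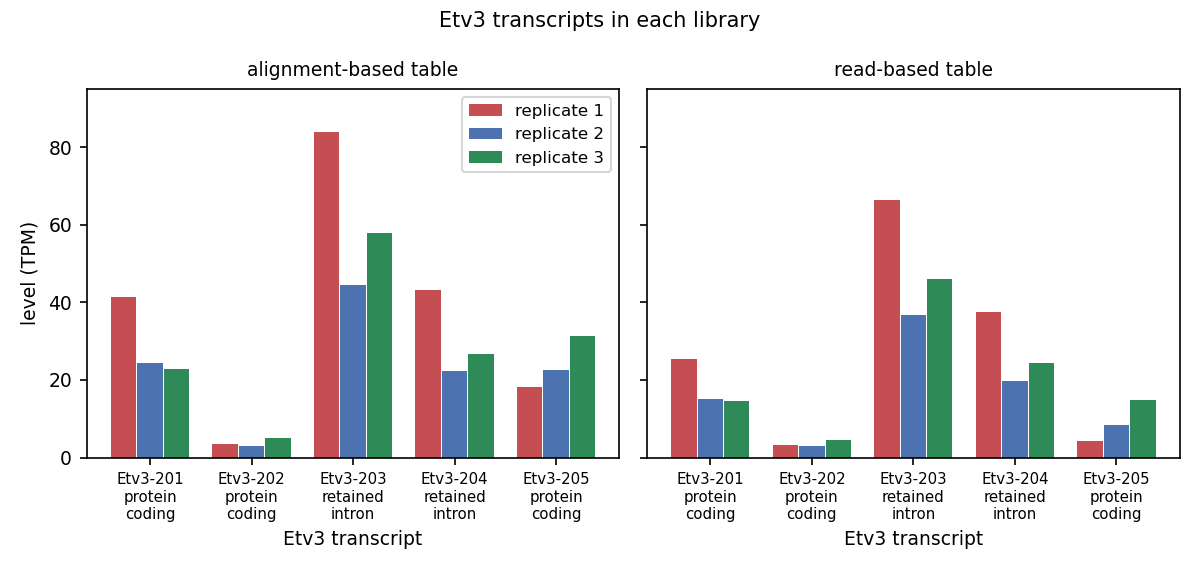
Level in TPM of the 5 annotated Etv3 transcripts in replicates 1, 2 and 3, in the alignment-based table on the left and the read-based table on the right, 1 bar per library. Both retained intron transcripts are highest in replicate 1 in both tables, while Etv3-205 is lowest in replicate 1 in both.

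The introns between coding exons that these transcripts keep whole are shown at their ends, because the transcripts that keep them hold most of the level of the most abundant gene. Etv3-203 also keeps the span of a 1598 nt and an overlapping 1601 nt intron upstream, which do not lie between coding exons and are not shown. Each line has 20 exon bases in capitals and 40 intron bases in lower case, read 5′ to 3′ on the plus strand from the GENCODE M21 transcripts (mm10). The 553 nt intron at chr3:87527317-87527869 is kept in Etv3-203 and Etv3-204 and lies between coding exons of 3 coding transcripts. The 1116 nt intron at chr3:87528108-87529223 is kept in Etv3-204. The 956 nt intron at chr16:95717967-95718922 is kept in Ets2-205, a transcript of the second gene with mostly retained intron TPM, described further on.
Etv3 553 nt intron, 5′ splice site: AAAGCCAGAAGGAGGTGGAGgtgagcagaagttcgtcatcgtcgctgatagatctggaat
Etv3 553 nt intron, 3′ splice site: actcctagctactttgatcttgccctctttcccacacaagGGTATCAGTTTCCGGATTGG
Etv3 1116 nt intron, 5′ splice site: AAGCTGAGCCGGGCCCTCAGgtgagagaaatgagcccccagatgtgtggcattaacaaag
Etv3 1116 nt intron, 3′ splice site: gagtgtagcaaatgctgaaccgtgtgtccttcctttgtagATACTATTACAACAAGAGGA
Ets2 956 nt intron, 5′ splice site: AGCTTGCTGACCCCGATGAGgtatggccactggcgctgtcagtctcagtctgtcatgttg
Ets2 956 nt intron, 3′ splice site: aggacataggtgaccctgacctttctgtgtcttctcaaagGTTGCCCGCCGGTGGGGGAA
All 3 introns start with GT and end with AG, the usual splice site letters. In the 20 bases before the last 3 of each intron, pyrimidines made up 85%, 70% and 75%, in the order of the lines.

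The annotation covers Etv3 more densely than any of the other genes. Exons of some Etv3 transcript cover 69.7% of the gene's span of 14750 bases, whereas this share ran from 2.55% for Etv6 to 30.5% for Ets2 in the other 9 genes. Reads from introns of Etv3 can therefore be counted to an annotated transcript more often than intron reads of Etv6 or Fli1 can, and the part of this in the order of the genes was not tested. From coding transcripts alone, Etv3 still had the highest level in the alignment-based table, 57.4 ± 6.92 TPM, ahead of Elf2 with 42.7 ± 1.34 and Elk4 with 28.9 ± 2.25 TPM. From coding transcripts in the read-based table, Fli1 was highest with 38.7 ± 1.96 TPM, followed by Etv3 with 31.2 ± 3.91 and Etv6 with 29.2 ± 2.39 TPM.

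Etv6, a repressor also called TEL that recruits corepressor complexes and is needed for blood stem cells in bone marrow, lies at chr6:134035700-134270158 on the plus strand, the longest span of the 10 genes. Its level was 16.9, 14.1 and 15.7 TPM in replicates 1, 2 and 3, from 920, 928 and 1260 counts. The read-based table gave 40.1, 43.8 and 37.1 TPM, so that every read-based value lay above every alignment-based value, and Etv6 moved from the seventh to the fourth place. Most of this gap lay in short transcripts. The 3 Etv6 transcripts under 1000 nt had 3.93 ± 0.45 TPM in the alignment-based and 29.8 ± 3.62 TPM in the read-based table, against 11.6 ± 1.30 and 10.5 ± 1.09 TPM for the longer ones. The coding transcript Etv6-202 (5707 nt) led the alignment-based table with 55.9 ± 2.86% of the gene, Etv6-204 (611 nt) led the read-based one with 46.3 ± 7.00%, and the retained intron transcript Etv6-205 held 20.3 ± 1.55% in the former.

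The ELF group of 3 genes was uniformly present. Elf2, whose isoforms include activating and repressing forms, lies at chr3:51252720-51340663 on the minus strand. Its level was 71.3, 73.5 and 79.0 TPM in replicates 1, 2 and 3, and it was the steadiest of the 10 genes, with a 1.11-fold range. The read-based table gave 99.2, 85.7 and 94.5 TPM, again with a narrow range but with replicate 1 now highest. The transcripts behind these sums differed between the tables: the coding Elf2-213 led in the alignment-based table with 27.2 ± 2.24%, whereas Elf2-207, of the nonsense-mediated decay type, led in the read-based table with 42.0 ± 3.78% against 15.7 ± 6.79% in the other. The retained intron transcript Elf2-210 was at 20.5 ± 1.62% and 16.5 ± 0.99%, a smaller gap.

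Elf1, an activator with known targets in blood cells, lies at chr14:79481194-79582494 on the plus strand. Its level was 45.0, 37.5 and 41.2 TPM in replicates 1, 2 and 3, and its read-based level was lower in each library, at 39.0, 33.7 and 35.1 TPM. Its main transcript in both tables was Elf1-203, a processed transcript (an annotated type without a coding frame) of 2778 nt. Elf1-203 held 67.5 ± 1.22% of the gene's TPM in the alignment-based and 59.7 ± 0.93% in the read-based table, and 86.6% of its bases lie outside the exons of the coding transcripts. The coding transcripts of Elf1 gave 13.4 ± 1.15 TPM. Elf4, an activator also called MEF that promotes type I interferon expression, lies at chrX:48411046-48463132 on the minus strand. Its level was 25.4, 22.6 and 21.4 TPM, and all 3 of its annotated transcripts are coding. The transcript Elf4-201 led both tables, with 85.6 ± 6.57% and 39.8 ± 6.60%, while Elf4-203 was at 0 counts in the alignment-based table and at 9.45 ± 1.14 TPM in the read-based one.

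The genes of the ternary complex factors, which bind DNA with SRF and are phosphorylated by ERK, lay far apart. Elk4 (SAP-1) lies at chr1:132007607-132032612 on the plus strand, and its level was 53.2, 41.1 and 45.6 TPM in replicates 1, 2 and 3. Elk3 (Net), which can act as a repressor until ERK phosphorylates it, lies at chr10:93247414-93311135 on the minus strand, and its level was 9.25, 8.32 and 7.07 TPM. Elk4 exceeded Elk3 in every library, and both were highest in replicate 1. The read-based table gave Elk4 75.4, 72.9 and 72.4 TPM, and the excess again lay in transcripts under 1000 nt, with 37.5 ± 3.22 TPM against 3.02 ± 1.21 TPM in the alignment-based table. Elk4-204, a processed transcript of 268 nt, was the leading read-based transcript with 28.8 ± 4.32% and had 0 alignment-based counts. The labels give a size range of 250 to 400. The lengths of Elk4-203 (362 nt), Elk4-204 and Elk4-205 (305 nt) fall within it, so their TPM is uncertain. The part of this in the read-based level of Elk4 was not tested. The coding Elk4-202 led the alignment-based table with 42.1 ± 5.29%, followed by Elk4-207 of the nonsense-mediated decay type with 31.3 ± 3.82%. Elk3-201, which is coding, led both tables for Elk3, and the retained intron transcript Elk3-203 held 34.2 ± 4.71% and 42.5 ± 2.62%.

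Fli1, a factor of blood and endothelial cells, lies at chr9:32422204-32542861 on the minus strand. Its level was 29.5, 24.5 and 29.2 TPM in replicates 1, 2 and 3, and its read-based level was higher in each, at 40.1, 36.5 and 39.5 TPM. Both annotated transcripts are coding, Fli1-201 led both tables with 89.4 ± 2.30% and 58.7 ± 2.70%, and the 878 nt Fli1-202 accounted for the excess with 15.9 ± 0.26 against 2.89 ± 0.33 TPM. Among the 4 endothelial markers, Vwf was at 36.4, 26.4 and 37.9 TPM and Kdr at 11.0, 3.19 and 4.56 TPM, while Cdh5 was at most at 0.64 and Tek at most at 0.13 TPM. Vwf, Kdr and Fli1 were all lowest in replicate 2, as were 39.0% of 15873 detected genes and 6 of the 10 ETS genes. Tek was lowest in replicate 3. The part of other cells in the Fli1 level was not tested.

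Introns of Fli1 and Etv6 held separately annotated models with levels above those of the genes themselves. These are gene models of the TEC type, an annotation class that awaits experimental support, on the same strand as the host, with no base shared with the host's exons. In Fli1, Gm37082 was at 54.4, 57.4 and 55.0 TPM, Gm38346 at 49.3, 43.2 and 47.5 TPM, and Gm37474 at 39.9, 30.0 and 32.5 TPM. Each of the 3 exceeded Fli1 in every library, while Gm38292, the model furthest from the gene's start at 62.5 kb, was below it with 13.5 ± 1.07 TPM. In Etv6, Gm43982 was at 39.3, 39.1 and 34.2 TPM and Gm43984 at 37.4, 30.0 and 24.9 TPM, both above the host in every library. Elf2 also holds a model of this kind, Gm37399, which was far below its host with 14.5 ± 1.70 TPM against 74.6 TPM. How often such models exceed their hosts over all genes was not computed. Reads of the host's unspliced RNA and of a separate RNA at these positions cannot be told apart in these tables.

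**Figure D3:**
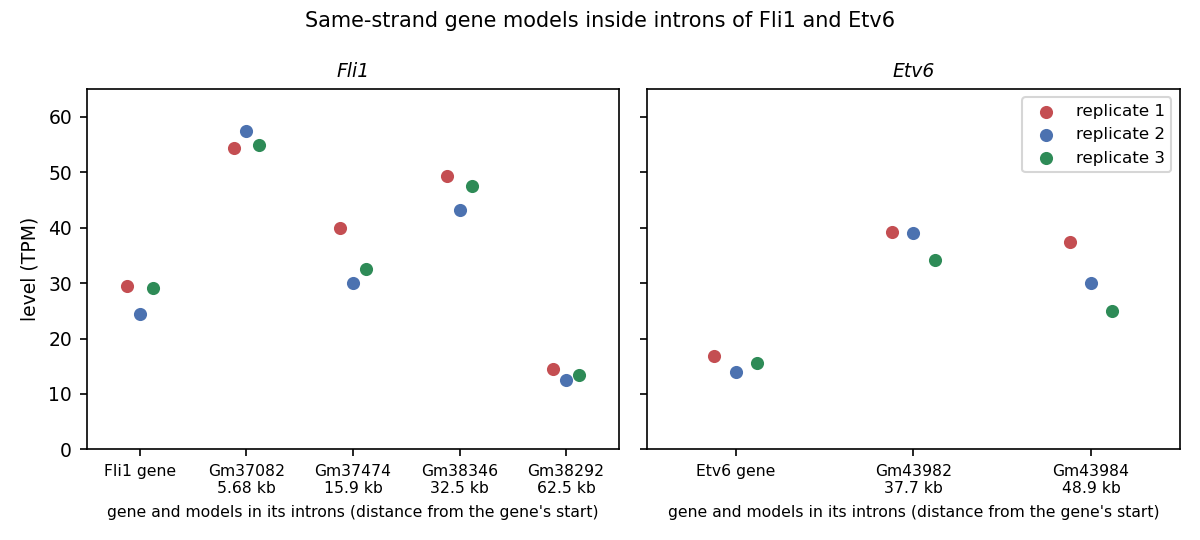
Level in TPM of Fli1 and Etv6 and of the same-strand TEC models in their introns, ordered by distance from the host gene's start in kb, 1 point per library. Of the 6 models, 5 lie above their host in each of the 3 libraries, and Gm38292 lies below Fli1. The model Gm37399 in Elf2, which is below its host, is not drawn.

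Ets1 and Ets2, which gave the family its name, had means below 10 TPM in the gene table, Ets1 far below. Ets2, an ERK-responsive activator known in macrophages downstream of the Csf1 receptor, lies at chr16:95702075-95721051 on the plus strand. Its level was 7.55, 7.25 and 10.4 TPM in replicates 1, 2 and 3, from 128, 111 and 257 counts. Replicate 3 was the highest library, 1.43-fold above the lowest in TPM and 1.76-fold in counts scaled by the TMM method. The estimated effective length of the gene, by which TPM divides, was 1358, 975 and 1250 nt in the 3 libraries. The read-based table gave Ets2 10.4, 10.9 and 18.3 TPM, above 10 TPM in each library. Retained intron transcripts held 81.0 ± 1.69% of Ets2 in the alignment-based and 75.2 ± 3.35% in the read-based table, the largest alignment-based share among the 10 genes. Ets2-206 had the highest mean share in both tables, 21.9 ± 8.80% and 25.3 ± 6.62%, but not in replicate 1, and in the alignment-based table Ets2-203 with 21.7 ± 5.83% and Ets2-204 with 20.9 ± 5.57% were within this spread. The coding transcripts of Ets2 gave 1.58 ± 0.21 TPM. Ets1, best known in T, B and NK cells, lies at chr9:32636221-32757820 on the plus strand, 93.4 kb from Fli1. It had 6, 10 and 17 counts, or 0.16, 0.30 and 0.31 TPM, and was the only one of the 10 below 1 TPM. The read-based table gave 0.97, 1.56 and 1.41 TPM, of which 68.7 ± 5.02% was in the retained intron transcript Ets1-204 that shares no base with exons of the coding transcripts. Ets1-203, also of the retained intron type, had the highest mean share in the alignment-based table, 43.6 ± 8.51%. It exceeded the coding Ets1-201, which had 41.1 ± 10.2%, in replicate 2 only. Of these few counts no finer division can be read.

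Across the genes, the type of transcript that carried the level ranged from all coding to mostly non-coding. At least 50% of the TPM was in non-coding types (retained intron, nonsense-mediated decay or processed transcript) for Ets2, Elf1 and Etv3, which is 3 of the 9 genes with at least 1 TPM, beside 42.7% of 10628 protein-coding genes at that level. The read-based table gave 6 of 10, beside 49.1%, with Ets1, Elf2 and Elk4 added. Retained intron types alone reached 50% in 2 of 9, beside 27.6%, and in 3 of 10, beside 25.1%. For so few genes, these counts are near the shares over all genes. The shares differed between the tables, and why they did was not tested.

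**Figure D4:**
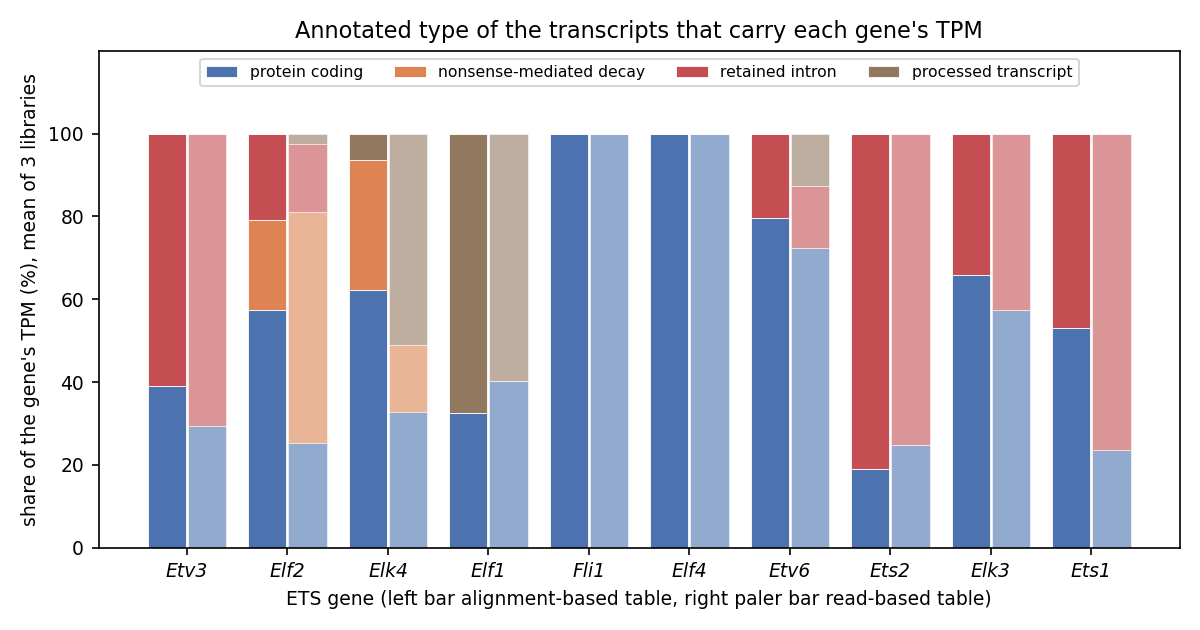
Share in % of each gene's TPM by annotated transcript type, mean of 3 libraries, with the alignment-based table as the left and the read-based table as the right, paler bar of each pair. Elf4 and Fli1 are fully coding, Ets2 and Etv3 are mostly of the retained intron type, Elf1 is mostly processed transcript, and Elf2 and Elk4 have larger non-coding shares in the read-based table.

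The read-based level lay above the gene-table level in all 3 libraries for 7 of 10 genes, beside 70.2% of detected protein-coding genes, and below it in all 3 for Etv3, Elf1 and Elk3, beside 17.0%. The ratio of the means ran from 0.72 for Etv3 to 2.60 for Etv6 among genes above 1 TPM. For Elk4, Etv6 and Fli1 the gap lay in transcripts under 1000 nt. For Elf2 the transcripts past this limit had 89.9 ± 6.04 against 73.0 ± 4.26 TPM, but this depends on the limit. The largest rise was in Elf2-207, which is just past it with 1083 nt and had 39.2 ± 5.45 against 11.9 ± 5.70 TPM.

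Replicate 1 held the highest value for 7 of 10 genes, namely Etv3, Elk4, Elf1, Fli1, Elf4, Etv6 and Elk3, beside 38.9% of 15873 detected genes. The count was also 7 in the read-based table, beside 39.7%, and in counts scaled by TMM, beside 36.8%, or by DESeq2 size factors, beside 37.3%. With TPM rescaled to the total of protein-coding genes the count was 5 of 10, beside 26.9%, and Fli1 and Elk3 were then highest in replicates 3 and 2. Ets1, Ets2 and Elf2 were highest in replicate 3, beside 31.7% of genes, and 6 of 10 genes were lowest in replicate 2, beside 39.0%. The difference of a library from the mean of the other libraries had a median over the 10 genes of 0.18 in replicate 1 and -0.20 in replicate 2. On the same log2(TPM + 1) scale, all detected genes had 0.02 and -0.03. Starting RNA and depth differ between the libraries as given above, and their part was not tested. A range of at least 1.5-fold between libraries was found for Etv3 and Ets1, 2 of 10 genes, beside 31.7%.

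**Figure D5:**
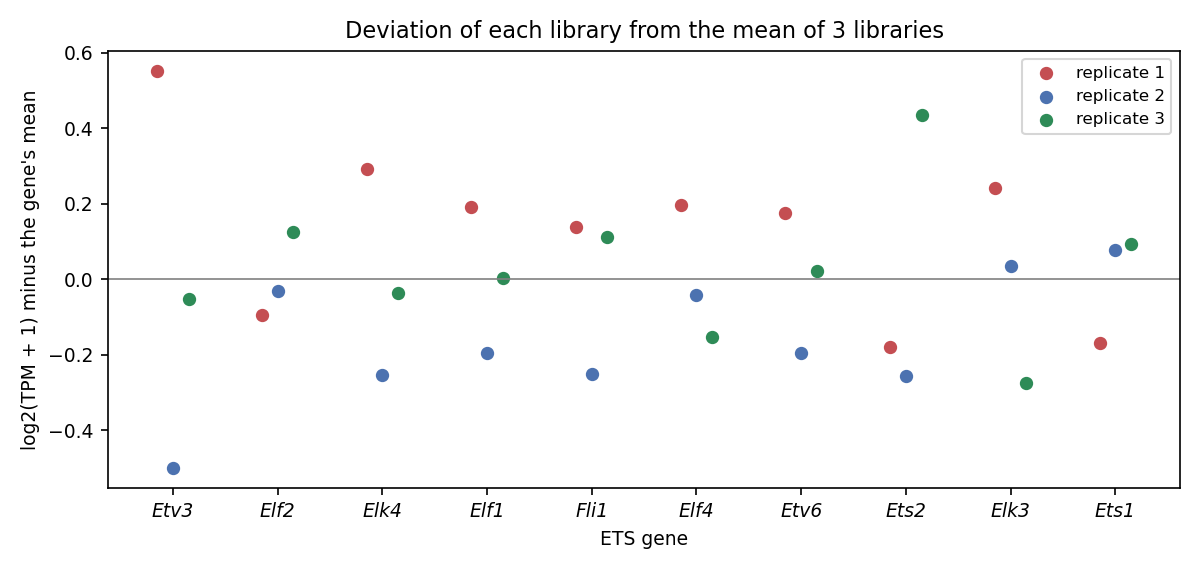
Difference of each library's log2(TPM + 1) from the gene's mean over the other libraries, 1 point per library, genes in order of mean level. The title and axis label name the gene's mean, but the mean used leaves out the library itself. Replicate 1 lies highest for 7 of the 10 genes, and Etv3 has the widest spread.

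Spread beyond counting error was small for most of the genes. The biological coefficient of variation estimated by edgeR had a median of 0.13 over the 10 genes and 0.16 over all 15879 genes fitted. It was lowest for Elf2 (0.12) and above the median of all genes for Etv3 (0.17), Ets2 (0.21) and Ets1 (0.23). This coefficient depends on the count, and the trend over all genes at the count of each was 0.14, 0.17 and 0.26. Etv3 and Ets2 thus lay above their trend, while Ets1 and each of the remaining genes lay below. Among the 14 ETS genes with a mean count of at least 100, the pair of one of the 10 genes and another with the most similar pattern over the 3 libraries was Elf1 and Etv6, with a root mean square distance of 0.0094 between centred log2(TPM + 1) values, followed by Fli1 and Gabpa with 0.035. Over 3 libraries, such closeness is a description only.

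The other ETS genes were mostly lower than the 10 described, which were chosen with earlier results of these data known. The gap may thus in part reflect the choice. Spi1, the macrophage ETS factor, was at 57.1 ± 9.87 TPM (SD, n = 3), between Elf2 and Elk4, and at 124 ± 20.4 TPM in the read-based table, where its mean lay above that of each of the 10 genes. Elk1, the remaining ternary complex factor, was at 15.3 ± 0.63 TPM and Gabpa, which pairs with a GABPB subunit, at 12.5 ± 1.64 TPM. Spic, a factor of red pulp macrophages, was at 3.96 ± 0.28 TPM, Etv5 at 3.57 ± 1.26, the repressor Erf at 3.27 ± 0.93 and Etv1 at 1.58 ± 0.69 TPM. Of 17 partners and regulators of ETS factors, 15 had at least 10 TPM. The highest were Ncor1 with 211 ± 5.34 TPM, a corepressor, the ubiquitin ligase Cop1 that targets ETS factors, with 99.4 ± 15.6 TPM, and the acetyltransferase Ep300 with 94.6 ± 5.76 TPM. The lowest on average was Srf, the partner of Elk3 and Elk4, with 5.38, 3.00 and 4.54 TPM, though Ddx20 was lower in replicate 1 with 3.85 TPM. In the read-based table Ddx20 was the lowest with 6.65 ± 0.82 TPM, against 8.15 ± 1.51 TPM for Srf.

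ETS motifs were also found in promoters of the ETS genes themselves. RefSeq promoter windows (GRCm38.p6, 250 bases before to 50 after a start site) were given for 8 of the 10 genes, 13 windows in all, and not for Ets1 and Fli1. The letters CGGAAG on either strand were in 4 of the 13 windows, from Elk4, Elf2 and Etv3, beside 16.9% of all 32851 windows. GGGCGG, the GC box, was in 11 of 13, beside 35.7%, and 3 of the 6 CGGAAG matches overlapped one. The letters TGANTCA (AP-1) were in 3 of 13 windows, beside 7.81%. The 13 windows ran from 44.7% to 78.7% G or C, and a share over windows of like composition was not computed. Windows of a gene can overlap, as for Elk4, so they are not separate observations. One window with a match that overlaps no other motif searched is shown, upstream of the first Elk4 start site, the most abundant ternary complex factor here, with the CGGAAG match in capitals. It lies 67 bases before the start site, on the plus strand, within chr1:132007370-132007606, of which the bases outside annotated exons are printed.
Elk4 promoter: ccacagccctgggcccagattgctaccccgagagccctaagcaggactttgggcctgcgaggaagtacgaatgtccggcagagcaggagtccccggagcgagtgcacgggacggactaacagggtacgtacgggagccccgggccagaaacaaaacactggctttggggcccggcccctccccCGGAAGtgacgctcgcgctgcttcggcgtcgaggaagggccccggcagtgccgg
The core GGAA outside CGGAAG was not searched and is not marked. No binding was measured in these samples, so a match describes the letters only.

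Overlaps with other genes limit 5 of the 10 levels. Exons on the opposite strand overlap those of Elf1 by 327 bases (Wbp4), Elf2 by 371 bases (4930577N17Rik), Elk3 by 316 bases (Cdk17), Elk4 by 84 bases (Mfsd4a) and Etv6 by 135 bases (Gm17089). The sources used here do not say if counting was stranded, and reads in these stretches may have gone to either gene. Cdk17, at 11.8 ± 0.73 TPM, lay above Elk3 in every library, and each of the other 4 partners lay below its ETS gene.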

How the data were processed

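Each of the 3 libraries had a gene table and an alignment-based transcript table with expected counts and TPM, which the authors made from transcriptome alignments (mm10, GENCODE M21, per the file headers and deposited notes). A read-based transcript table gave estimated counts and TPM as deposited by the authors, and its transcripts were summed per gene. Tools, versions and use of strand are not given in the sources used here. Rows of no annotated gene (1.24, 0.482 and 0.228% of counts) were dropped. The genes and lists were chosen with earlier results of these data known. Named were all 10 genes, each gene's leading transcript per table and leading non-coding transcript of at least 10% in either table, other ETS genes of at least 1 TPM in either table, and the 3 highest and the lowest partners. Some transcripts were added after their values were seen (Etv3-204 and Etv3-205, Elf4-203, Fli1-202, Ets2-203, Ets2-204, Ets2-205), as were the intron models. Detection needed a mean count of at least 10, and levels used log2(TPM + 1). Dispersion came from expected counts rounded to whole numbers, with edgeR 4.0.16 (TMM, intercept only) under R 4.3.3 and DESeq2 1.42.0 as the alternative, and was tested on simulated data. Other steps used Python 3.11.15, numpy 2.4.6, pandas 2.3.3 and matplotlib 3.10.9. With 1 group no test between conditions was made. Alternatives covered the table, pseudocount, scaling, filter, transcripts summed and leaving out each replicate.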

Additional observations from a re-analysis of the deposited data

How the results depend on the processing

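The median of the 10 ETS genes, 4.71 on the log2(TPM + 1) scale, was 5.24 in the read-based table and 6.34 with TPM rescaled to protein-coding genes, a scaling that multiplies TPM by 3.00, 3.34 and 3.18 in replicates 1, 2 and 3 and moves the median of all detected genes by 1.47, 1.61 and 1.55. It was between 4.66 and 4.76 without 1 replicate. The genes with at least 50% of their TPM in non-coding transcripts numbered 3, and 6 in the read-based table, with 3 to 4 when 1 replicate was left out. The genes of at least 10 TPM numbered 7 without any 1 replicate, 8 in the read-based table, 9 with the rescaling and 7 from coding transcripts alone. The count above in the read-based table was 7 without any 1 replicate and 5 with both tables rescaled. The median coefficient of variation was 0.10 to 0.16 without 1 replicate and 0.13 by DESeq2. The count highest in replicate 1 was 7 under TMM and DESeq2 scaling, in the read-based table and from coding transcripts, the last chosen after seeing the data, and 5 with rescaled TPM. The level of single genes stayed within 1 SD in 9 of 10 cases with a pseudocount of 0.1, and in 1 of 10 in the read-based table. Of the 9 neighbouring pairs, 7 kept one direction in all libraries with coding transcripts alone. No paired analysis was possible because the series has 1 group. Depth limits Ets1, with 6 to 17 counts, most.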

Other observations

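Some ETS genes were above 1 TPM on average in the read-based table alone. Ehf, an epithelial ETS factor, had 0 counts in the alignment-based gene table of each library and 3.02, 3.94 and 3.70 TPM in the read-based table. Elf5, another epithelial factor, had 5, 4 and 8 counts and 2.67, 5.56 and 5.45 read-based TPM. Spib, a factor of B cells and plasmacytoid dendritic cells, had at most 1 count and 1.16, 1.23 and 1.00 read-based TPM. Cd3d, a T cell marker with at most 1 count, was listed at 12.4, 16.9 and 16.2 read-based TPM. Fev and Etv2 were listed at 0 in both tables.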
